A study of Mus musculus with 10 samples.

Results

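The receptors of bone morphogenetic proteins (BMPs) and activins, together with the co-receptor endoglin, were followed in the liver of mice given VEGF-A by adenoviral gene transfer. The 9 genes were taken by symbol from a list of the family: the type I receptors Acvrl1 (ALK1), Acvr1 (ALK2), Bmpr1a (ALK3), Acvr1b (ALK4) and Bmpr1b (ALK6), the type II receptors Bmpr2, Acvr2a and Acvr2b, and Eng. They are 9 of 24011 genes with a symbol in the deposited table, each with 1 RefSeq transcript. RNA was taken from the liver of 10 male C57BL/6 mice of 8 to 12 weeks of age, 6 days after injection into the tail vein and after perfusion with PBS. The AdVEGFA group (n = 5) received an adenovirus that carries VEGF-A165 under the CMV promoter, and the AdCMV group (n = 5) an empty adenovirus with the CMV promoter and no transgene, so that both groups carried a vector and no uninjected mouse was measured. The CMV promoter is not restricted to a cell type, and whole liver tissue was sequenced, so fewer cells of a type and less RNA per cell cannot be told apart in these values.

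BMPs and activins signal through complexes of type I and type II receptors, in which the constitutively active type II kinase phosphorylates the type I receptor, which then phosphorylates SMAD proteins in the cytoplasm. ALK1 and endoglin are receptors for BMP9 and BMP10 that are found mainly on endothelial cells, and loss of either one in humans causes hereditary hemorrhagic telangiectasia. ALK2 and ALK3 on hepatocytes take part in the induction of hepcidin by BMP ligands from the sinusoidal endothelium, and BMPR2 serves many BMPs as type II partner, with germline mutations in pulmonary arterial hypertension.

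Sequencing depth, recovered from the steps of the RPKM values (reads divided by transcript length in kilobases and by library size), was 5758960 to 13494011 mapped tags per AdCMV library and 5596564 to 8133949 per AdVEGFA library. The major urinary protein (Mup) genes of hepatocytes took 18.0% to 50.5% of the reads in the AdCMV group and 7.84% to 28.6% in the AdVEGFA group. RPKM is a share of the library, and over all tested genes the log2 fold changes had a median of 0.38. After median-ratio scaling, which sets the typical gene equal between libraries, it was -0.011, and for the receptors both scales are given. AdCMV replicate 3 stood apart from its group, with the lowest Mup share (18.0%) and a scaling factor of 1.22 against 0.660 to 0.991 in the other AdCMV libraries. Hepatocyte markers were abundant in every library, their sum ranging from 16372 to 21063 RPKM with AdCMV and from 28949 to 36344 RPKM with AdVEGFA. Mouse Vegfa ranged from 13.8 to 23.2 RPKM with AdCMV and from 28.3 to 39.4 RPKM with AdVEGFA, and how far reads of the transgene contributed to this value was not tested.

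The reference promoters are shown for Eng and Bmpr2, which were called higher in the comparison below, and for Bmpr1a, which was not. Each is the RefSeq sequence of GRCm38.p6 from 250 bases before to 50 bases after the annotated start, 5′ to 3′ on the strand of the gene, and capitals mark GGGCGG (GC box) and AGGAAG (a core bound by ETS factors) on either strand.
Eng, chr2:32646345-32646644, plus strand: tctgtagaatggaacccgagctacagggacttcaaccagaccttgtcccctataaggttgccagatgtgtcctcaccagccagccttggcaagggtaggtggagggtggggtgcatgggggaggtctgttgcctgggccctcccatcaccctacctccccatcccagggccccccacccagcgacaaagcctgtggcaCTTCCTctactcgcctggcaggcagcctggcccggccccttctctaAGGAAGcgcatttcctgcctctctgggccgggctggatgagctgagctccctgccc
Bmpr2, chr1:59764029-59764328, plus strand: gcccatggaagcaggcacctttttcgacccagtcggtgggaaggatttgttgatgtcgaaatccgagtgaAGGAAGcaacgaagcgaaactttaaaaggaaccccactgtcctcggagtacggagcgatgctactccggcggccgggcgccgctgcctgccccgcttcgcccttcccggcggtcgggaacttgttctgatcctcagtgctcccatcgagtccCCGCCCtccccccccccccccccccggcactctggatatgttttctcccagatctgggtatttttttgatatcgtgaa
Bmpr1a, chr14:34502497-34502796, minus strand: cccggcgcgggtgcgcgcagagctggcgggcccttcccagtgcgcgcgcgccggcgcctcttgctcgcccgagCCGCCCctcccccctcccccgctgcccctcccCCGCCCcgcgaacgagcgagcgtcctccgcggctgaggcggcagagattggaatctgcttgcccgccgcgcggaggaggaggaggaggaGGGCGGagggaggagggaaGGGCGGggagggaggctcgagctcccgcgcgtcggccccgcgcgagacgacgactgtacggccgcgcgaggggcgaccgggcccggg
The Bmpr1a window had a GC content of 79.3% with 48 CpG dinucleotides and 4 GC boxes, and no AGGAAG. The Eng window had a GC content of 63.3% with 6 CpG dinucleotides, no GC box and AGGAAG at -6 and, on the opposite strand, at -52 relative to the start. The Bmpr2 window had a GC content of 59.3% with 23 CpG dinucleotides, a GC box at -28 and AGGAAG at -180. Over 32851 promoters of the same length the median GC content was 52.7% with a median of 7 CpG dinucleotides, 35.7% held GGGCGG and 35.4% held AGGAAG. Of the other motifs searched on both strands, GGCGCC, a BMP-SMAD element found in 11.9% of all promoters, was at -198 in the Bmpr1a window and at -105 in the Bmpr2 window. The letters CCGGAA (14.9% of all promoters), AGATAA (11.2%), CACGTG (7.15%) and TATAAA (13.6%) were in none of these 3 windows. An entry was found for 8 of the 9 genes, all but Acvrl1, and the motifs were chosen with the expression results known. The window of Acvr1, which was higher without a call, had a GC content of 83.7% with 51 CpG dinucleotides, 6 GC boxes and no AGGAAG. Those of Acvr1b, Acvr2a and Acvr2b held 4, 3 and 3 GC boxes and no AGGAAG, and the Bmpr1b windows held neither motif.

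Endoglin was the most abundant of the 9 genes in both groups and rose with VEGF-A (transcript in mm9 at chr2:32502115-32538189, plus strand). Eng RPKM was 16.04, 17.4, 16.8, 8.56 and 15.4 in AdCMV replicates 1 to 5 and 42.5, 40.9, 38.6, 46.3 and 36.6 in AdVEGFA replicates 1 to 5. Every AdVEGFA mouse lay above every AdCMV mouse, with 287 to 836 reads per library in the AdCMV group and 768 to 1338 in the AdVEGFA group. The means were 14.9 ± 3.60 and 41.0 ± 3.69 RPKM (SD, n = 5 each), and the log2 fold change was 1.497 (SE 0.21, limma with Benjamini-Hochberg adjusted p = 5.19e-05). With median-ratio scaling it was 1.10 (SE 0.16, limma adjusted p = 0.000281). The groups still did not overlap, beside 10.5% of all genes that were higher without overlap on this scale.

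Acvrl1, the type I receptor that works with endoglin, also rose (mm9 chr15:100958953-100975767, plus strand). Its RPKM was 0.985, 1.49, 1.78, 0.960 and 2.05 in the 5 AdCMV mice and 3.81, 3.55, 5.39, 4.02 and 3.83 in the 5 AdVEGFA mice. No AdCMV mouse reached the lowest AdVEGFA mouse, although a library held only 26 to 73 Acvrl1 reads in the AdCMV group and 78 to 119 in the AdVEGFA group. The log2 fold change was 1.49 (SE 0.25, limma adjusted p = 0.000357), and 1.10 (SE 0.17, limma adjusted p = 0.000384) after median-ratio scaling. Acvrl1 and Eng were called in 25 of 26 fits each, the exception being the test against a minimum fold change described in the closing section.

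Acvr1, the type I receptor ALK2 (mm9 chr2:58298849-58419239, minus strand), was higher in the AdVEGFA group without reaching the threshold on the fold change. RPKM was 1.95, 1.54, 3.88, 1.61 and 2.69 in the AdCMV mice and 4.34, 3.90, 5.00, 5.10 and 3.33 in the AdVEGFA mice. The ranges met through AdCMV replicate 3, which was above AdVEGFA replicate 5. The log2 fold change was 0.93 (SE 0.26, limma adjusted p = 0.0164, a rise that 21.9% of all genes passed on the p alone). After scaling it was 0.55 (SE 0.15, limma adjusted p = 0.0197) with no overlap between the groups, beside 10.5% of all genes that were higher without overlap on this scale. The unscaled value was past both thresholds without AdCMV replicate 3 (1.13), AdCMV replicate 5 (1.00) or AdVEGFA replicate 5 (1.02).

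Bmpr1a, the type I receptor ALK3 (mm9 chr14:35224254-35315732, minus strand), was the most abundant type I receptor in both groups and did not share the rise. RPKM was 4.42, 4.66, 9.71, 4.02 and 6.74 in the AdCMV mice and 5.63, 4.58, 5.33, 4.18 and 4.43 in the AdVEGFA mice. The AdVEGFA values lay inside the AdCMV range, which AdCMV replicate 3 stretched upward. The log2 fold change was -0.21 (SE 0.24, limma adjusted p = 0.526), with a 95% confidence interval from -0.73 to 0.30. After median-ratio scaling the ranges separated, 5.67 to 7.95 in the AdCMV group against 3.51 to 4.85 in the AdVEGFA group, beside 7.26% of all genes that were lower without overlap on this scale. The scaled log2 fold change was -0.61 (SE 0.13, limma adjusted p = 0.00568), and -0.53 (limma adjusted p = 0.0141) when AdCMV replicate 3 was also left out, a check added after the data were seen. The direction held in all 26 fits, from -0.63 to -0.018, but the fall was never past the fold change threshold.

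Acvr1b, the activin receptor ALK4 (mm9 chr15:101004556-101043032, plus strand), was low and variable. RPKM was 1.52, 0.340, 1.87, 0.520 and 1.76 in the AdCMV mice and 1.42, 0.660, 1.04, 0.753 and 1.82 in the AdVEGFA mice. The groups overlapped over nearly their whole range, at 15 to 48 reads per library in the AdCMV group and 16 to 40 in the AdVEGFA group. The log2 fold change was 0.08 (SE 0.43, limma adjusted p = 0.899) with a wide 95% interval, from -0.82 to 0.99. Bmpr1b, the receptor ALK6 (mm9 chr3:141500100-141594552, minus strand), had no read in any of the 10 libraries. A count of 0 allows up to 3 reads, or 0.0418 to 0.0980 RPKM per AdCMV library and 0.0694 to 0.101 RPKM per AdVEGFA library, which covers counting error only.

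Of the type II receptors, Bmpr2 (mm9 chr1:59821123-59934925, plus strand) rose. Its RPKM was 1.14, 0.863, 1.67, 1.10 and 1.87 in the AdCMV mice and 3.22, 2.76, 3.10, 2.23 and 3.41 in the AdVEGFA mice. The groups did not overlap, and the log2 fold change was 1.13 (SE 0.25, limma adjusted p = 0.00395). After median-ratio scaling it was 0.75 (SE 0.19, limma adjusted p = 0.0138), short of the limit on fold change, and the groups overlapped. Bmpr2 kept its call in 17 of 26 fits. It lost the call in every fit with another scaling, at log2 fold changes from 0.73 to 0.80. It also lost it with a pseudocount of 1 (0.77), in the test against a minimum fold change, and without AdCMV replicate 2 (1.00).

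Acvr2a, which binds activins as well as BMPs (mm9 chr2:48669629-48758784, plus strand), was the most abundant type II receptor in both groups. RPKM was 4.22, 3.99, 7.05, 3.37 and 5.67 in the AdCMV mice and 7.22, 6.96, 7.13, 4.90 and 5.37 in the AdVEGFA mice. The groups overlapped, with a log2 fold change of 0.40 (SE 0.23, limma adjusted p = 0.201) and 0.0094 after median-ratio scaling. Acvr2b, its close relative (mm9 chr9:119311619-119342624, plus strand), was 1.39, 1.62, 1.503, 0.816 and 0.925 RPKM in the AdCMV mice and 1.27, 1.91, 2.12, 1.38 and 1.41 RPKM in the AdVEGFA mice. These ranges overlapped as well, with a log2 fold change of 0.36 (SE 0.27, limma adjusted p = 0.335) and -0.012 after scaling, at 9 to 37 and 12 to 24 reads per library.

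**Figure D1:**
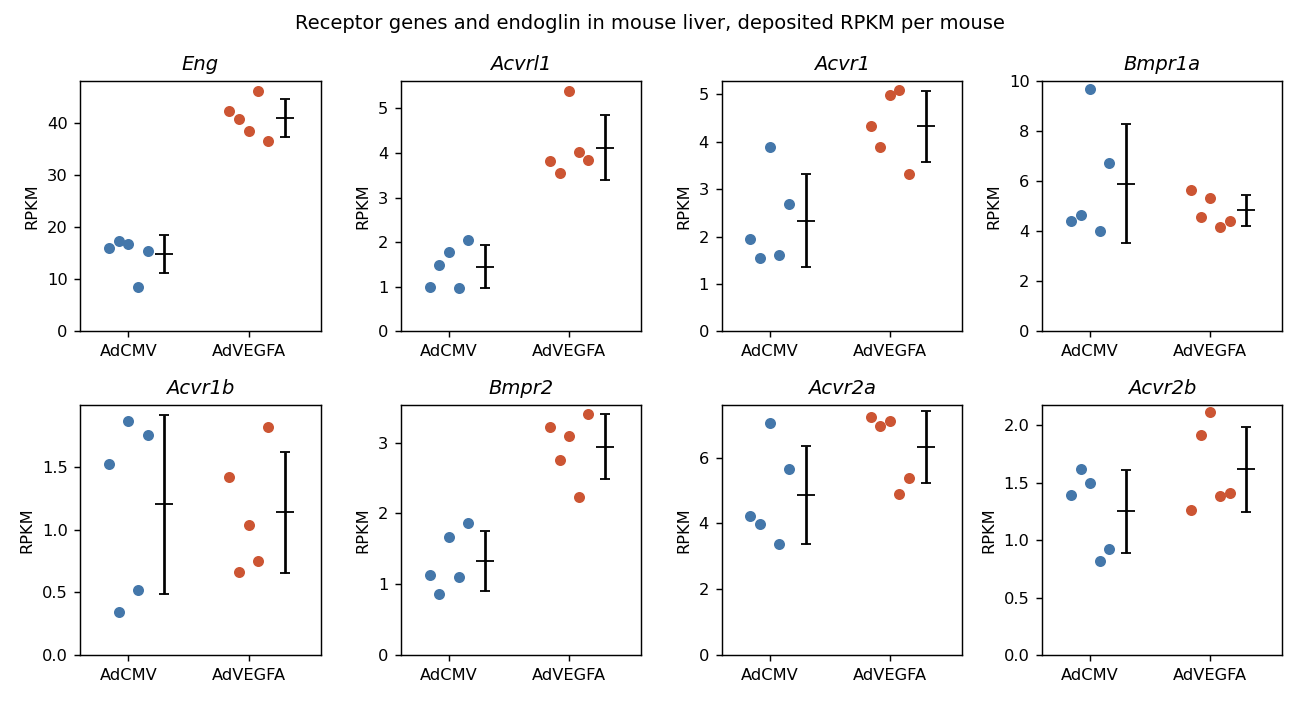
RPKM of 8 of the 9 genes in the 5 AdCMV and 5 AdVEGFA mice, 1 point per mouse with the mean and SD. Eng, Acvrl1 and Bmpr2 do not overlap between the groups, and Bmpr1b, at 0 throughout, is not drawn.

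In all, 8 of the 9 genes had a mean above 0.5 RPKM in 1 or both groups, as the test required, and all 8 had it in both. Of these, 3 were called higher in AdVEGFA (Eng, Acvrl1 and Bmpr2) and 0 lower, beside 13% of all 13933 genes tested called higher and 1.54% called lower. The same 3 genes were those without overlap between the groups, beside 14.3% of all genes, and the median log2 fold change of the 8 was 0.67 beside 0.38 over all genes. After median-ratio scaling 2 of 8 were called higher, beside 7.63% of 13827 genes, and 0 lower, beside 3.21%, with a median of 0.28 beside -0.011. On the adjusted p alone, 4 were then higher, beside 12.6% of all genes, and Bmpr1a was lower, beside 10.5%. Exact permutation tests on the RPKM of single genes (two-sided, unadjusted) gave p = 0.00794 for Eng, Acvrl1 and Bmpr2, the smallest value that 5 against 5 allows. The exact permutation p was 0.0159 for Acvr1, 0.127 for Acvr2a, 0.151 for Acvr2b, 0.421 for Bmpr1a and 0.881 for Acvr1b.

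**Figure D2:**
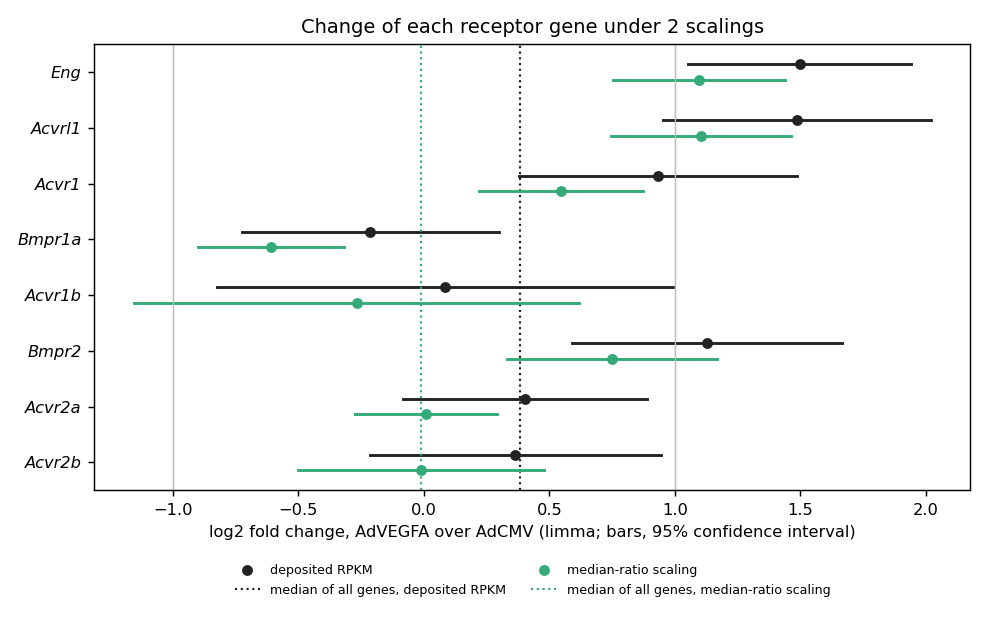
Log2 fold change (AdVEGFA against AdCMV) of the 8 tested genes with 95% confidence intervals, on deposited RPKM and after median-ratio scaling. Eng, at 1.497 and 1.10, and Acvrl1, at 1.49 and 1.10, lie above 1 on both scales, and the interval of Bmpr1a excludes 0 only after scaling.

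The order of the levels changed little outside Bmpr1a. In the AdCMV group it ran from Eng through Bmpr1a, Acvr2a, Acvr1, Acvrl1, Bmpr2 and Acvr2b to Acvr1b. In the AdVEGFA group Acvr2a stood above Bmpr1a, in 5 of 5 mice, and in the AdCMV group below it, in 5 of 5 mice. The low end of the AdCMV order was not resolved: Acvrl1 exceeded Bmpr2 in 3 of 5 mice, Bmpr2 exceeded Acvr2b in 3 of 5 and Acvr2b exceeded Acvr1b in 2 of 5. In the AdVEGFA group Acvrl1 lay above Bmpr2 and Bmpr2 above Acvr2b without overlap of their ranges, while Acvr1 exceeded Acvrl1 in only 3 of 5 mice.

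The make-up of the type I receptor RNA shifted from Bmpr1a towards Acvrl1. Bmpr1a made up 54.3% ± 3.73 (SD, n = 5) of the summed RPKM of the 5 type I receptors in the AdCMV group and 33.6% ± 3.02 in the AdVEGFA group. Acvrl1 went from 13.8% ± 3.34 to 28.5% ± 2.53, and Acvr1 from 21.3% ± 1.53 to 30.03% ± 4.16. These shares do not depend on scaling between libraries, and those of Bmpr1a, Acvrl1 and Acvr1 did not overlap between the groups. Among the type II receptors Bmpr2 went from 17.9% ± 3.55 to 27.2% ± 3.76, also without overlap, and Acvr2a from 64.8% ± 3.11 to 57.9% ± 3.36, with a slight overlap. The summed type I RPKM was 1.43 ± 0.186 times the type II sum in the AdCMV group and 1.34 ± 0.200 times in the AdVEGFA group.

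**Figure D3:**
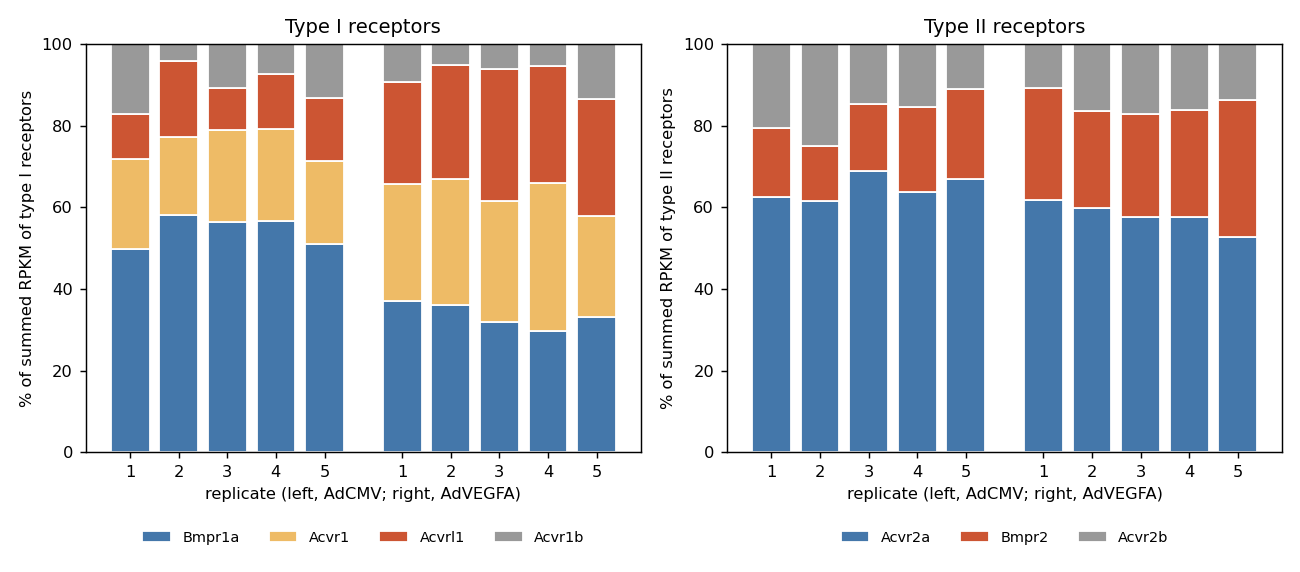
Share of each receptor in the summed RPKM of its class, type I or type II, in percent for each of the 10 mice. Bmpr1a takes 49.8% to 58.1% of the type I sum in AdCMV mice and 29.8% to 37.1% in AdVEGFA mice.

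Ratios of genes within a library were tested for 8 pairs, with Bmpr2 as the common reference in 7 of them. Bmpr1a to Bmpr2 went from 3.42 to 5.53 in the AdCMV mice to 1.29 to 1.84 in the AdVEGFA mice, a mean log2 difference of -1.34 (exact permutation p = 0.00794, adjusted over the 8 pairs 0.0317). Acvr2a to Bmpr2 went from 2.89 to 4.25 down to 1.56 to 2.47, a mean log2 difference of -0.72 (exact permutation p = 0.00794, adjusted 0.0317). In both pairs no AdVEGFA mouse reached the lowest AdCMV mouse, so Bmpr2 gained on both genes whatever the scaling. On deposited RPKM the log2 fold change of Bmpr2 was 0.74 above the median of all genes, and that of Acvr2a 0.020 above it. The Acvr2a ratio therefore mostly restates the rise of Bmpr2. The share of all genes that separated the groups in this way against Bmpr2 was not computed. Acvr1b to Bmpr2 differed by -1.04 (exact permutation p = 0.0397, adjusted 0.106) and Acvr2b to Bmpr2 by -0.76 (exact permutation p = 0.0635, adjusted 0.127), neither past the threshold after adjustment. Acvrl1, Eng and Acvr1 to Bmpr2 differed by 0.36, 0.37 and -0.20, with exact permutation p of 0.119, 0.238 and 0.373. Leaving out AdCMV replicate 2 brought Acvrl1 to Bmpr2 past the threshold (0.51, exact permutation p adjusted to 0.0423), and leaving out AdCMV replicate 5 did so for Acvr2b to Bmpr2 (-0.98, adjusted 0.0423). The ratio of Eng to Acvrl1 was 7.23 to 14.9 in the AdCMV group and 7.04 to 11.3 in the AdVEGFA group, a mean log2 difference of 0.010 (exact permutation p = 0.944), which does not show that the pair changed alike.

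**Figure D4:**
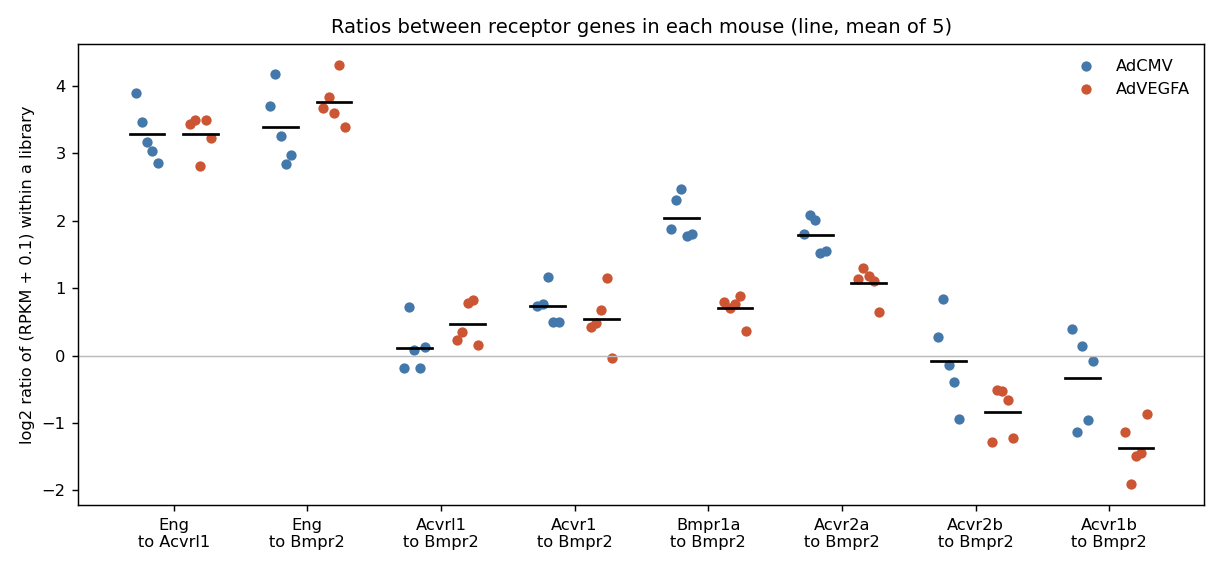
Log2 ratio of 2 receptor genes in each mouse for the 8 pairs tested, by group. Bmpr1a to Bmpr2 and Acvr2a to Bmpr2 separate the groups completely, and Eng to Acvrl1 overlaps.

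Markers of several cell types moved with the groups, and their part in the receptor values was not tested. Over all genes 13% were called higher and 1.54% lower on deposited RPKM, and 7.63% and 3.21% after scaling. All sums below are on deposited RPKM, where the median log2 fold change over all genes was 0.38. The 14 pan-endothelial markers were all called higher, their sum being 34.5 to 71.5 RPKM in AdCMV mice and 311 to 392 RPKM in AdVEGFA mice. All 10 sinusoidal endothelial markers were called higher, 8 of them after scaling, with a sum of 60.7 to 104 RPKM against 245 to 334 RPKM. Of the stellate markers 8 of 10 were higher, with a sum of 79.2 to 130 RPKM against 200 to 381 RPKM, and of the Kupffer cell markers 3 of 10 (8 and 2 after scaling), with a sum of 145 to 308 RPKM against 303 to 471 RPKM. T and NK cell markers were lower in 6 of 9 tested (7 after scaling), with a sum of 11.9 to 41.8 RPKM against 8.73 to 18.2 RPKM. The B cell markers summed to 0.669 to 1.71 RPKM against 3.00 to 8.12 RPKM, with 3 of 4 called higher, 1 of them after scaling, and Pax5 at 0 in all AdCMV mice. Cholangiocyte markers summed to 24.2 to 53.7 RPKM against 281 to 726 RPKM, with 1 of 4 called higher on both scales. Their median log2 fold change was 0.69, and 0.32 after scaling, so the sum does not show a rise common to the list. Of the 10 hepatocyte markers 2 were called higher and 0 lower, and after scaling 0 higher and 1 lower.

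Set against the pan-endothelial markers of the same library, the receptor genes were lower in the AdVEGFA group, as were most genes. Relative to the mean of these 14 markers, whose own mean log2 fold change was 2.78, Eng changed by -1.28 (SE 0.19), Acvrl1 by -1.29 (SE 0.16) and Bmpr2 by -1.65 on the log2 scale, each called lower by limma. All 8 tested receptor genes were called lower in this comparison, beside 93.9% of all genes, down to -2.99 for Bmpr1a, and 0 higher, beside 0.179%. With a pseudocount of 1, Eng was at -0.84 and lost its call, which left 7 called lower. On the adjusted p alone, 95.8% of all genes were lower and 0.459% higher. Over all genes the median was -2.39 on the log2 scale. Set against that median, Eng was at 1.11, Acvrl1 at 1.10, Bmpr2 at 0.74, Acvr1 at 0.55 and Acvr2a at 0.020. Acvr2b was at -0.020, Acvr1b at -0.30 and Bmpr1a at -0.60. The sinusoidal markers rose by a mean of 1.78 on the log2 scale. Relative to them, Eng changed by -0.28 (95% interval -0.65 to 0.092, limma adjusted p = 0.139) and Acvrl1 by -0.29 (95% interval -0.65 to 0.073, limma adjusted p = 0.118). Bmpr2 changed by -0.65 (limma adjusted p = 0.00579) and Acvr1 by -0.84 (limma adjusted p = 0.000829) against the sinusoidal markers, short of the fold change threshold. Acvr2a, Acvr2b, Acvr1b and Bmpr1a were called lower. Set against the median gene of this fit, these 4 were at 0.020, -0.020, -0.30 and -0.60, as with the pan-endothelial markers. The share of all genes called lower against the sinusoidal markers was not computed.

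The genes most like each receptor over the 10 mice were found by the root-mean-square difference of their centered log2 profiles, among 12268 genes. For Eng these were Necap2 (0.183), Prkd2 (0.187) and Oaz2 (0.190). For Acvrl1 they were Ccdc126 (0.133), Frmd4a (0.135) and Arhgef2 (0.137), and for Bmpr2 they were Dock9 (0.126), Atrnl1 (0.136) and Cd300lg (0.161). The genes nearest to Bmpr1a were AI314180 (0.0983), Tkt (0.113) and Eno1 (0.118), with log2 fold changes of -0.11, -0.23 and -0.32.

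Around the receptors, 28 of 62 tested genes of the pathway were called higher, beside 13% of all genes, and 0 lower. After median-ratio scaling 18 of 63 were called higher, beside 7.63% of all genes. Of the 28, 7 passed the filter only through the AdVEGFA group, where they are high (Bmp6, Bmp10, Gdf6, Hey1, Msx1, Fstl3 and Bmper), and among the 53 genes over the filter in both groups 21 were called higher, 15 of them also after scaling. Unless a scaled value is named, the log2 fold changes that follow are on deposited RPKM.

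Of the ligands, 6 of 13 tested were called higher, beside 13% of all genes, and 3 after scaling, beside 7.63%. Of the 6, Bmp6, Bmp10 and Gdf6 passed the filter only through the AdVEGFA group. Among the 9 ligands over the filter in both groups, 3 were called higher, 2 of them after scaling. Bmp2 (log2 fold change 2.08), Bmp6 (2.21) and Gdf2, which encodes BMP9 (1.39), were called on both scales, while Bmp10 (1.75) lost its call after scaling (limma adjusted p = 0.0589). Of the activin subunits Inhbb (1.503) was called on both scales, 1 of 4 tested, while Inhbc (0.08), Inhbe (-0.13) and Inhba (0.56) were not called. Among the TGF-beta receptors Tgfbr3, encoding betaglycan (1.56), was called on both scales and Tgfbr2 (1.12, scaled 0.73) on deposited RPKM only, while Tgfbr1 (0.55) and Tgfbr3l (0.54) were not called. Of the other co-receptors Bambi (1.74), a decoy receptor, was called on both scales and Rgmb (1.15, scaled 0.82) on deposited RPKM only, while Hfe2, the hepatic co-receptor hemojuvelin (-0.25), and Neo1 (-0.16) were not called.

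Inside the cell, 3 of 8 SMAD genes were called higher on both scales, Smad6 (2.04) and Smad7 (1.63), both inhibitory, and Smad9 (1.42). Smad1, which transmits BMP signals, had a log2 fold change of 0.86, short of the threshold. Of the BMP-SMAD response genes 9 were over the filter in both groups and all 9 were called higher, Id1 (2.85) among them, with 7 of them called after scaling. Hey1 and Msx1 were also called, with AdCMV means of 0.0582 and 0.159 RPKM against 6.98 and 0.877 RPKM, so that their fitted fold changes rest on the pseudocount, and Msx2 was not called (0.39). Of the genes for receptor turnover and partners 2 of 12 were called, Fkbp1a (1.497) on both scales, whose product FKBP12 holds type I receptors inactive, and Mmp14 (1.21, scaled 0.81), a protease that sheds endoglin, on deposited RPKM only. Xiap (0.23) and Strap (0.27) of the same list were not called. Of the extracellular inhibitors Fstl1 (3.10) was called on both scales, while Fstl3 (1.25) and Bmper (1.25) lost their calls after scaling (limma adjusted p = 0.120 and 0.0734) and Twsg1 was not called (-0.07).

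**Figure D5:**
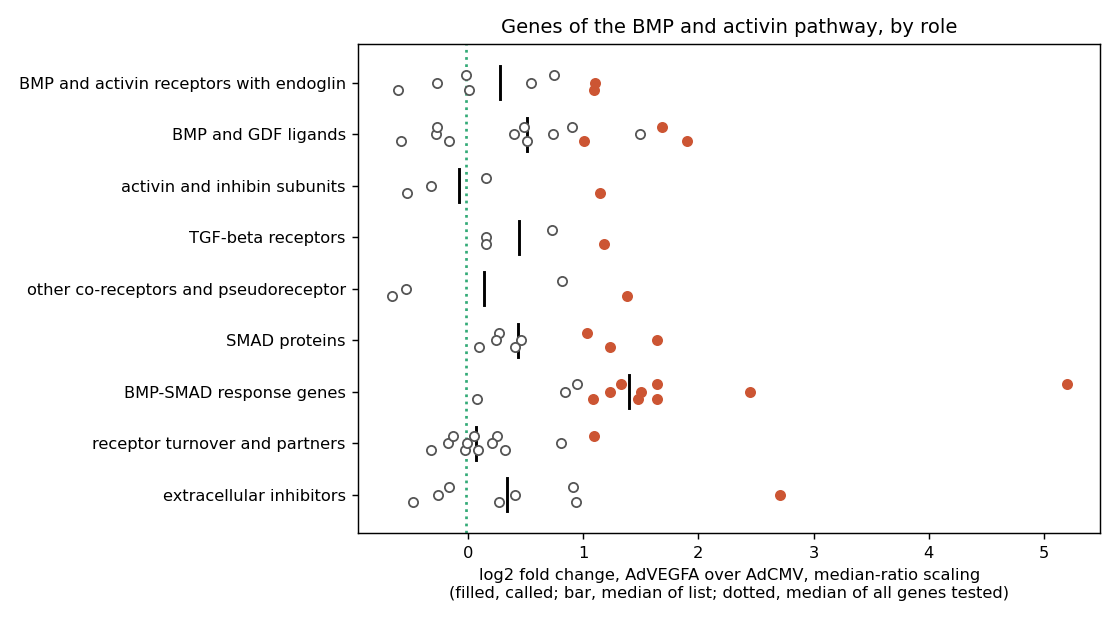
Log2 fold change after median-ratio scaling of each tested gene of the pathway lists, by list. On this scale Id1 lies at 2.45 and Fstl1 at 2.71, and no gene of these lists was called lower.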

How the data were processed

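Ribosome-depleted liver RNA of 10 mice, 5 per group as the titles give them, had been sequenced on day 6. Mapping by the authors used TopHat, and the submitters' processing notes also name HOMER and the build mm9. The deposited table holds RPKM for 24016 RefSeq transcripts in every mouse, scaled by library total and not further, and the FDR and log fold change of the authors' own comparison, which were not used. Whether counting used strand is not given in the sources used here, so overlapping genes (Orc4 with Acvr2a, Fpgs with Eng, Mir6962 with Acvr1b) could share reads.

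The 9 genes, lists and motifs were chosen with earlier results of these data known. Genes whose mean passed 0.5 RPKM in 1 or both groups entered limma 3.58.1 (R 4.3.3, trend) on log2(RPKM + 0.1), where fold changes of low genes are understated. Calls needed a p under 0.05 after Benjamini-Hochberg adjustment over all tested genes, with a log2 fold change beyond 1 in either direction. Reads were recovered from the RPKM steps, where 99.99% of the values above 0 in a library came out whole, taken over the 15551 to 16349 values for which the tolerance was under 0.1 reads. The recovery of reads and the limma fit were tested on simulated data, and the exact permutation test on small made-up sets of values. Single genes and ratios were compared with two-sided exact permutation tests (scipy 1.17.1). Likeness was taken for 4 genes, and pathway genes were named by largest change among those called, then by mean RPKM. Libraries of a group differed by at least 11.7 times the counting variance, so each counted as 1 replicate. Alternatives were other scalings, pseudocounts and filters, voom on the recovered reads, a minimum-fold test, a block on the replicate number, and fits without each mouse in turn.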

Additional observations from a re-analysis of the deposited data

Results flagged for a closer look

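In 32 tests of a group's values for a gene or for a ratio of 2 genes, 2 had 1 mouse far from the others, where chance gives about 1 in 20. Both were among the values of single genes. Acvrl1 in AdVEGFA replicate 3 was 5.39 RPKM, the highest of its group, with a gap to the next mouse of 0.747 of the group's range (the limit for 5 mice is 0.71). Eng in AdCMV replicate 4 was 8.56 RPKM, the lowest of its group, with a gap of 0.775 of the range. That library also had the highest share of Mup reads, 50.5%, and after median-ratio scaling its Eng value was 12.98 RPKM.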

How the results depend on the processing

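Alternative scalings gave fewer genes called higher and more called lower. Against 1808 higher and 214 lower, they were 1055 and 444 with median-ratio scaling, 1099 and 397 with upper quartile scaling, 1034 and 451 without Mup genes in the totals, and 1135 and 477 with voom and median-ratio scaling. A pseudocount of 1 gave 954 higher, and a test against a minimum fold change (treat) gave 503 and 36. Pathway genes called higher, 28 as reported, were 18 with median-ratio or upper quartile scaling, 17 without Mup genes or with a pseudocount of 1, and 6 with treat, which called 0 receptor genes. The replicate block gave 1933 and 256, with 3 receptor genes called higher. Correlations between mice of the same number do not settle whether the numbers pair the mice (r between 0.0076 and 0.29, and 3 of 5 matched their own number best). The alternatives chosen after seeing the data gave 1065 higher, 480 lower and 18 pathway genes (median-ratio with block), and 1070, 425 and 16 (median-ratio without AdCMV replicate 3).

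Acvr1b turned to -0.27 with median-ratio scaling, with and without the block, -0.23 with upper quartile scaling and voom with median-ratio scaling, -0.28 without Mup genes, -0.00074 with a pseudocount of 1 and -0.17 with median-ratio scaling without AdCMV replicate 3. Acvr2b turned to -0.012 with median-ratio scaling, with and without the block, -0.022 without Mup genes, -0.056 with scaled voom and -0.053 with median-ratio scaling without AdCMV replicate 3, and its exact test difference to -0.0433 RPKM. Acvr2a turned to -0.0021 without Mup genes. With the sinusoidal markers as reference, 4 receptor genes were called lower in place of 8, and the share of all genes was not computed. With a pseudocount of 1, Eng to Bmpr2 was 0.67 (adjusted p = 0.0476) and Acvr1b to Bmpr2 -0.77 (adjusted p = 0.0318), and with 0.01 Eng to Acvrl1 was -0.046. The causes were not tested.

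Leaving out each mouse gave 1425 to 2357 genes higher, 178 to 225 lower, 22 to 31 pathway genes and 2 to 4 receptor genes called higher. Acvr1b ranged from -0.25 to 0.29, Eng to Acvrl1 from -0.097 to 0.16, Bmpr1a to Bmpr2 from -1.41 to -1.24, Acvr2a to Bmpr2 from -0.79 to -0.62, Acvrl1 to Bmpr2 from 0.27 to 0.51 and Acvr2b to Bmpr2 from -0.98 to -0.54. With 4 mice in a group the exact permutation p cannot fall below 0.0159, which gives 0.0635 after adjustment when 2 of the 8 pairs reach it, so these 2 pairs losing their call in that case says nothing about stability. Read counts were low for Acvr1b (15 to 48 per AdCMV library) and Acvr2b (9 to 37), and 0 for Bmpr1b. How far depth limited these genes was not tested.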

Other observations

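Of the pathway genes outside the receptors, 3 chosen after their values were seen had negative log2 fold changes, as Bmpr1a did, with no call on either scale. On deposited RPKM, Hfe2 (hemojuvelin) had a log2 fold change of -0.25, Neo1 (neogenin, a binding partner of hemojuvelin) of -0.16 and Twsg1 (twisted gastrulation, a BMP-binding protein) of -0.07. After median-ratio scaling they were -0.66 (SE 0.18, limma adjusted p = 0.0171), -0.53 (SE 0.16, limma adjusted p = 0.0317) and -0.47 (SE 0.12, limma adjusted p = 0.0128), beside the -0.61 of Bmpr1a. Gdf15 (-0.18), Inhbe (-0.13) and Nodal (-0.011) were also negative on deposited RPKM. Scaled, they were -0.58, -0.53 and -0.27, with limma adjusted p of 0.246, 0.105 and 0.778. On the adjusted p alone, 10.5% of all genes were lower after scaling. The cause was not tested.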
